A study of Homo sapiens with 10 samples.

Results

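Collagen genes encode the chains of the collagen proteins of the extracellular matrix. They were taken here as every gene whose symbol, in the authors' deposited table, is COL, a number, A and a number. The rule gave 44 of the 32152 genes in the count table, and 39 of them had enough counts to be tested among 19163 tested genes. They were read by class as 11 fibrillar genes (10 tested), 8 basement membrane genes (8 tested) and 25 genes of other classes (21 tested).

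The cells were human embryonic stem cells of WAe009-A, an established line better known as H9, and polyA RNA was sequenced in 10 libraries. The 5 knockout libraries came from cells with both copies of KCNH2, a potassium channel gene, edited, which the genotype field calls a knockdown. They were grown on Matrigel-coated plates in mTeSR Plus medium. The 5 wild-type (WT) libraries came from unedited cells grown on Matrigel in TeSR-E8, so genotype and medium cannot be told apart in any comparison here. Matrigel is itself a basement membrane extract, which all 10 libraries share as a substrate. The edited site, the number of edited clones and whether replicates were separate cultures are not stated in the labels, so the p-values measure the spread between these libraries, which may be technical.

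Collagen chains wind around each other in trimers, made of copies of a single chain or of different chains of the same type. Fibrillar collagens such as types I, II, III, V and XI pack into the fibres of connective tissue, and type IV forms the sheet-like network of basement membranes, on which epithelial and pluripotent cells sit. The other classes decorate fibrils (the FACIT collagens, whose helix is interrupted), form beaded filaments or hexagonal networks, anchor membranes to fibres, or span the cell membrane. Chains need hydroxylation, folding and export before they leave the cell, and then cleavage and crosslinking outside it.

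The type IV genes lie as head-to-head pairs that are read away from a shared stretch of DNA, and this arrangement is shown because the members of each pair are compared below. In RefSeq (GRCh38.p14) 126 bases separate the starts of COL4A1 and COL4A2, 418 separate those of COL4A4 and COL4A3, and 379 separate the nearer start of COL4A6 from that of COL4A5. The whole stretch between COL4A1 and COL4A2 (chr13:110307158-110307283, plus strand) and the 250 bases before the starts of COL4A3 (chr2:227164374-227164623, plus strand) and COL4A5 (chrX:108439588-108439837, plus strand) are printed 5′ to 3′. Capitals mark each CCAAT box, read as CCAAT or on the other strand as its reverse complement. They also mark each GC box, read as GGGCGG or as its reverse complement.
COL4A1-COL4A2: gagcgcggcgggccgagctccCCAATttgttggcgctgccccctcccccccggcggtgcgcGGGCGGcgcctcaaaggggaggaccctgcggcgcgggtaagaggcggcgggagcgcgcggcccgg
COL4A3: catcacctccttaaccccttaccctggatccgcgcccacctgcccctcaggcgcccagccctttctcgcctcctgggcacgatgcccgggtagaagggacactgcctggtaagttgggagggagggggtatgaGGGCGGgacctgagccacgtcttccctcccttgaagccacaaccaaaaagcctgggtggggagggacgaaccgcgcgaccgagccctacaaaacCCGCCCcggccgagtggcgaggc
COL4A5: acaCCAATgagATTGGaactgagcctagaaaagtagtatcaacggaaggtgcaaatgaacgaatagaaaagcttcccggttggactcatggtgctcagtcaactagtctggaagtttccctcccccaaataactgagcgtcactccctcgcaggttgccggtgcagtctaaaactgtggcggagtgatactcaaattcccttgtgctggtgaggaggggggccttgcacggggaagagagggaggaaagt

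The 3 stretches differ in these letters. The COL4A1 and COL4A2 stretch holds 1 CCAAT and 1 GGGCGG, that of COL4A3 holds 2 GGGCGG and no CCAAT, and that of COL4A5 holds 2 CCAAT and no GGGCGG. Over 35116 RefSeq promoter windows of 250 bases, 32.01% hold CCAAT and 42.6% hold GGGCGG on either strand, and over 126 bases the shares are 21.1% and 34.6%. RefSeq promoter entries were matched for 32 collagen genes, which have 44 windows. CCAAT is in 12 of those (27.3%) and GGGCGG in 24 (54.5%) at 250 bases. These are matches of letters and describe no binding.

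Library totals ran from 29788732 to 40587206 counts for knockout cells and from 28615751 to 47319933 for WT cells. Values below are counts per 1000000 (CPM) on library sizes scaled by the TMM method of edgeR, and a difference is the log2 fold change of knockout over WT. KCNH2 was 12.2 ± 1.001 CPM in the knockout (SD, n = 5) and 15.5 ± 0.754 CPM (SD, n = 5) in WT, a log2 fold change of -0.35 (adjusted p = 0.0006484, edgeR quasi-likelihood test), so its RNA was lower but not lost. On the second principal component of all genes knockout replicate 3 (-59.1) and WT replicate 3 (-32.2) lay away from the other libraries, which ran from -10.1 (WT replicate 2) to 35.8. The 10 pluripotency markers, POU5F1 among them, summed to 7357 to 7781 CPM in the knockout and 6422 to 6759 CPM in WT. Of 12 fibroblast and mesenchyme markers 8 were in the table, and their sum of 674.8 to 812 CPM in the knockout and 717.6 to 793 CPM in WT came almost wholly from THY1, with PDGFRA, PRRX1, TCF21 and POSTN under 1 CPM in every library. S100A4 (log2 fold change -0.33) and POSTN (-0.66) were lower in the knockout (edgeR adjusted p of 0.0199 and 0.0266). PDGFRA, PDGFRB and THY1 did not pass. TWIST1, not tested, was 0.235 to 1.004 CPM in the knockout and 0.041 to 0.222 CPM in WT.

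Collagen genes were lower in the knockout libraries as a group. Of the 39 tested, 30 fell, 2 rose (COL22A1 and COL5A3) and 7 did not pass. The test was edgeR's quasi-likelihood test, at an adjusted p of 0.05 after Benjamini-Hochberg adjustment over all 19163 genes. Among all tested genes 24.1% fell and 21.9% rose, or 46.0% in either direction. The authors' deposited table called 3.79% of its genes, and among the collagens it called 9 lower (COL5A2, COL23A1, COL7A1, COL5A1, COL1A2, COL8A2, COL4A4, COL4A3 and COL8A1) and 1 higher (COL22A1). The median log2 fold change over the tested collagen genes was -0.40, against 0.0018 over all tested genes. For 25 of the 30 genes that fell, every knockout library was below every WT library, a pattern that 17.7% of all tested genes showed. Both genes that rose had all 5 knockout libraries above all 5 WT libraries, as did 16.3% of all tested genes. In whole tissue or culture RNA, fewer cells that express a gene and less RNA per cell cannot be told apart.

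Collagen transcripts are long, and transcript length moved with the result. Among the 3753 tested genes with a transcript of at least 5000 bases, 44.0% fell and 11.2% rose. Of the 26 tested collagen genes of that length 22 fell and 2 rose, with a median log2 fold change of -0.41. With an offset for transcript length and GC content in each library, 27 collagen genes fell and 3 rose at a median of -0.26, against 21.6% of all tested genes lower and 23.2% higher in that fit.

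Markers of differentiated cells also moved, and their part in the collagen result was not tested. The trophoblast and amnion list (7 of 9 in the table) summed to 17.0 to 19.3 CPM in the knockout and 31.8 to 40.8 CPM in WT, with GABRP and KRT7 lower and TFAP2C higher (log2 fold change 0.42, edgeR adjusted p = 0.00939), and with TFAP2A, GATA3, CDX2 and ISL1 under 1 CPM in every library. The endoderm list (6 of 8) summed to 1.98 to 2.51 CPM against 4.12 to 7.21 CPM, with GATA4, GATA6, AFP and HNF4A under 1 CPM. Most of that gap was FOXA2, at a mean of 0.400 CPM for knockout libraries against 3.73 CPM for WT libraries. Its log2 fold change was -3.23 (edgeR adjusted p = 2.91e-06). CXCR4 fell by 0.36 on the log2 scale, and AFP did not pass (edgeR adjusted p = 0.700). The cartilage and bone list (8 of 8) summed to 23.0 to 24.7 CPM against 27.3 to 31.3 CPM, with ACAN, MATN1, SP7, BGLAP and IBSP under 1 CPM. Listed markers outside the table are not analysed here. The sums of all 3 lists were lower in every knockout library than in every WT library. The endothelial list (7 of 8, mainly KDR) overlapped, at 85.5 to 89.1 CPM against 81.8 to 86.0 CPM, with CDH5 and PECAM1 under 1 CPM. Of its 6 tested genes ERG (-2.34 on the log2 scale), VWF (-1.15), CDH5 (-0.99) and TIE1 (-0.36) fell, whereas KDR (0.11) and TEK (0.57) rose. The neural crest list (6 of 7) overlapped too, at 102 to 116 CPM against 111 to 120.1 CPM, with PAX3 and PAX7 under 1 CPM. Of its 5 tested genes NGFR (-0.58 on the log2 scale) and PAX7 (-1.06) fell and SOX10 (0.47) rose, whereas FOXD3 and ETS1 did not pass.

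Summed over all 44 genes, collagen RNA was 2004 ± 62.3 CPM in the knockout (SD, n = 5) and 2568 ± 24.9 CPM (SD, n = 5) in WT. Each class sum was lower in all knockout libraries than in any WT library. The fibrillar sum was 321 ± 16.7 CPM in the knockout against 481.0 ± 4.05 CPM in WT, and the basement membrane sum was 957 ± 32.5 CPM against 1257 ± 17.1 CPM. The sum of the other classes was 725 ± 20.6 CPM against 830.2 ± 13.1 CPM. As a share of all counts, unscaled, collagens took 0.187% to 0.207% in the knockout and 0.260% to 0.266% in WT.

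**Figure D1:**
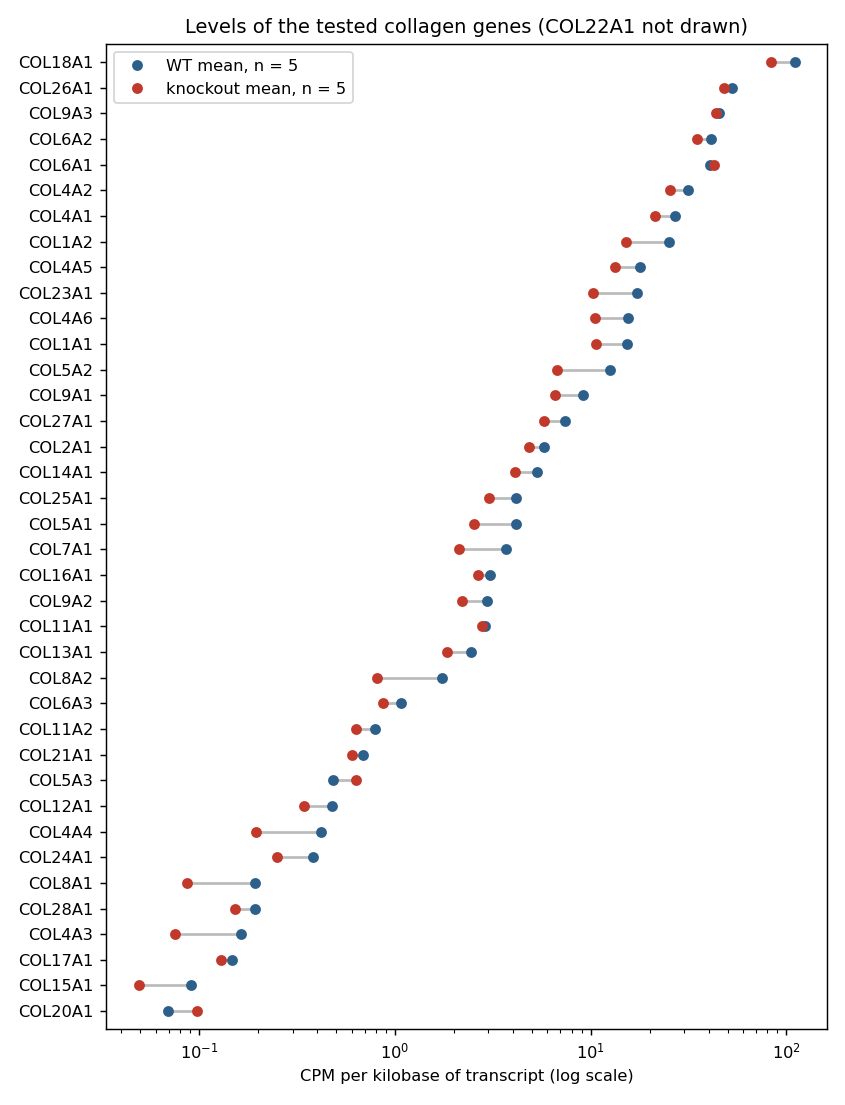
Mean level of each tested collagen gene in CPM per kilobase of transcript (log axis), with knockout means in red and WT means in blue (n = 5 each) and genes ordered by the WT level. COL18A1 led in both groups at 83.5 and 110.1 CPM per kilobase; COL22A1 is not drawn, since its WT counts were 0.

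Levels of different genes were compared per kilobase of 1 representative transcript per gene in GENCODE 29, as in the plot of levels per kilobase. COL18A1, a basement membrane collagen whose end is cut off as endostatin, had the highest level in WT at 110.1 CPM per kilobase. COL26A1 followed at 52.8 and COL9A3 at 45.2, then COL6A2 at 41.2 and COL6A1 at 40.8 CPM per kilobase. COL6A2 and COL6A1 did not differ beyond their spread in WT, where the ratio of COL6A1 to COL6A2 per kilobase was 0.990. In the knockout the order of COL18A1, COL26A1 and COL9A3 was the same, and COL6A1 (42.5 CPM per kilobase) was above COL6A2 (34.96). The fibrillar chain highest per kilobase in WT was COL1A2 at 25.1.

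**Figure D2:**
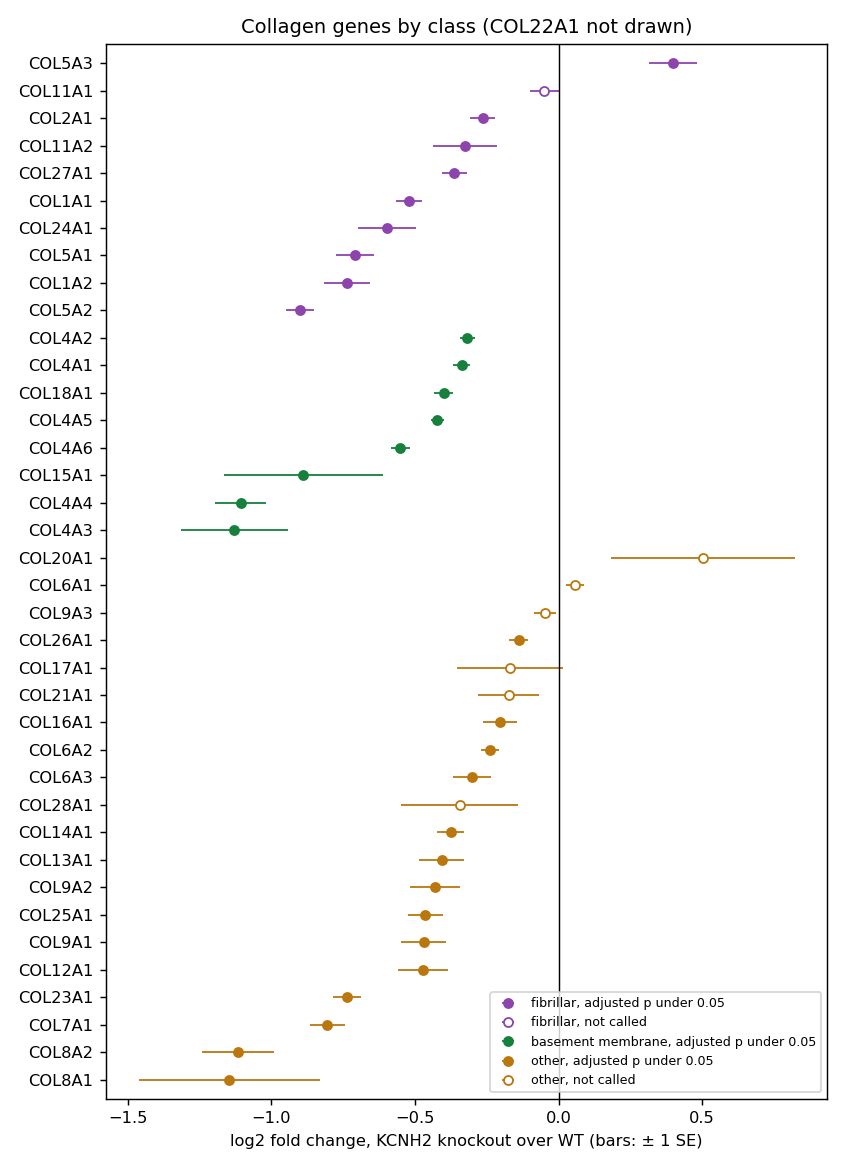
Log2 fold change of knockout over WT for the tested collagen genes by class, with 1 standard error to each side as bars, filled points for genes that passed the test and open points for those that did not. Most points lie left of 0, down to -1.15 for COL8A1. To the right lie COL5A3 at 0.40 and, as open points, COL20A1 at 0.50 and COL6A1 at 0.06. COL22A1 is not drawn.

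Fibrillar collagens fell for 8 of 10 tested genes and 1 rose, with a median log2 fold change of -0.44. Chains of types I and V build and seed the common fibres of connective tissue, and COL1A1, COL1A2, COL5A1 and COL5A2 were lower in every knockout library than in any WT library. Over the alternative fits, which include the length and GC offset, COL1A1 ranged from -0.56 to -0.36 on the log2 scale and COL1A2 from -0.80 to -0.59. COL5A1 ranged from -0.76 to -0.52 and COL5A2 from -0.94 to -0.74. The cartilage-type chains COL2A1, COL11A1 and COL11A2 had log2 fold changes from -0.33 to -0.05, as the plot of fold changes by class shows.

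COL5A2 (chr2:189031896-189225312, minus strand, ENSG00000204262), a chain of type V collagen, which sets the width of type I fibrils, showed the lowest adjusted p of the collagens. It was 49.7, 52.3, 46.8, 43.8 and 44.8 CPM in knockout replicates 1 to 5 and 86.1, 86.4, 86.8, 93.1 and 90.8 CPM in WT replicates 1 to 5. No knockout library came near the lowest WT library. Its mean was 47.5 ± 3.53 CPM (SD, n = 5) against 88.6 ± 3.14 CPM (SD, n = 5), a log2 fold change of -0.90 (SE 0.05, adjusted p = 9.99e-08, edgeR quasi-likelihood test with Benjamini-Hochberg adjustment).

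COL5A1 (chr9:134641774-134844843, plus strand), the partner chain of most type V trimers, was 21.5 ± 2.36 CPM in the knockout (SD, n = 5) and 35.1 ± 1.24 CPM (SD, n = 5) in WT, without overlap, at a log2 fold change of -0.71 (standard error 0.07, adjusted p = 7.34e-06 by edgeR). COL5A3 (chr19:9959561-10010471, minus strand), the rarer chain of the same type, went the other way. It was 3.595, 4.03, 3.88, 4.02 and 4.02 CPM in the knockout and 3.39, 2.83, 3.03, 2.92 and 2.65 CPM in WT. The groups did not overlap, though the lowest knockout value and the highest WT value, both of replicate 1, lay close together. Its log2 fold change was 0.40 (standard error 0.08, adjusted p = 0.00229 by edgeR), so within type V the low-level chain rose while COL5A1 and COL5A2 fell. An antisense transcript, AC008742.1, overlaps 4% of the exonic bases of COL5A3, and since the counting strand is not given its reads cannot be told apart there.

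COL1A1 (chr17:50183289-50201632, minus strand), the more abundant chain of type I collagen in bone, skin and tendon, was 70.9, 64.2, 78.7, 71.1 and 73.1 CPM in the knockout and 101, 102, 104, 102 and 104 CPM in WT. The knockout libraries spread over a wider range than WT and stayed well below it. On the log2 scale its fold change was -0.52 (standard error 0.04, adjusted p = 3.62e-06 by edgeR).

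COL1A2 (chr7:94394561-94431232, plus strand), the other type I chain, was 92.9, 96.3, 72.0, 73.0 and 74.1 CPM in the knockout and 132, 136, 138, 141 and 134 CPM in WT. Knockout replicates 1 and 2 lay above replicates 3, 4 and 5, and all 5 lay below WT. The log2 fold change was -0.74 (standard error 0.08, adjusted p = 2.28e-05 by edgeR). COL1A1 did not share this split between knockout libraries, since its lowest value was in replicate 2.

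Of the cartilage-type fibrillar chains, COL2A1, the main collagen of cartilage, fell by 0.26 on the log2 scale (edgeR adjusted p = 4.49e-04), from 29.4 ± 1.42 CPM in WT to 24.5 ± 1.11 CPM in the knockout. COL11A2, a minor cartilage chain, had a log2 fold change of -0.33 (standard error 0.11, adjusted p = 0.0321 by edgeR) with overlapping groups, and its adjusted p rose to between 0.0556 and 0.0776 without knockout replicate 1, 3, 4 or 5 or WT replicate 1, 2 or 4, each left out alone. With the length and GC offset COL11A2 was at -0.18 (adjusted p = 0.215) and COL2A1 at -0.15. Its partner COL11A1 did not pass, at a log2 fold change of -0.05 (edgeR adjusted p = 0.445), and with the length and GC offset its value was 0.11 (adjusted p = 0.0618). The minor fibrillar genes COL24A1 and COL27A1 fell, at -0.60 and -0.36 on the log2 scale, and COL27A1 was at -0.18 with the offset. COL3A1, the chain of reticular fibres in skin and vessels, had 4 counts over the 5 knockout libraries and 0 over the 5 WT libraries and was not tested. A count of 0 over the WT libraries allows up to 3 counts, or 0.0156 CPM.

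Basement membrane collagens fell for all 8 tested genes, with a median log2 fold change of -0.49, and 7 of the 8 did so without overlap. They include the 3 head-to-head pairs whose sequences are printed above, and both members of each pair fell.

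**Figure D3:**
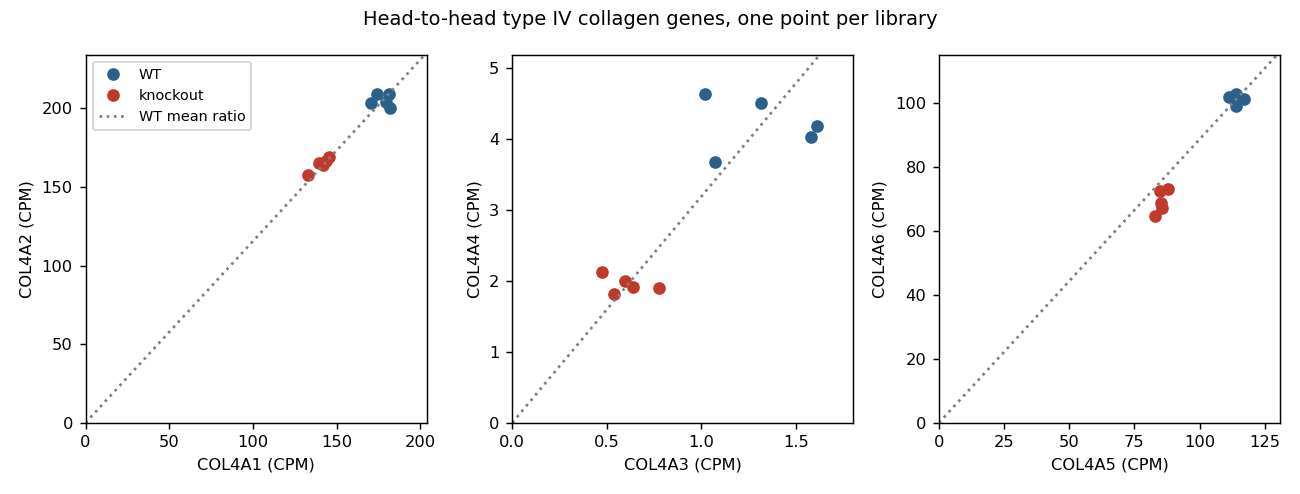
CPM of the 2 genes of each head-to-head type IV pair plotted against each other, 1 point per library, knockout in red and WT in blue, with a dotted line at the ratio of the WT means. In all 3 panels the knockout points lie below and left of the WT points, and for COL4A5 and COL4A6 they also lie below the dotted line.

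COL4A1 (chr13:110148963-110307233, minus strand), a chain of the type IV network found in nearly all basement membranes, was 144, 145, 139, 142 and 133 CPM in the knockout and 171, 174, 181, 182 and 179.6 CPM in WT. COL4A2 (chr13:110305812-110513209, plus strand), which joins it in the same trimer, was 167, 169, 165, 164 and 157 CPM in the knockout and 204, 209, 209, 200.2 and 204 CPM in WT. Both genes were lower in all 5 knockout libraries, and replicate 5 was the lowest for both. Their log2 fold changes were -0.34 (standard error 0.03, adjusted p = 5.18e-06 by edgeR) for COL4A1 and -0.32 (standard error 0.03, adjusted p = 2.38e-06 by edgeR) for COL4A2. With the length and GC offset both were at -0.16 and still passed.

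COL4A5 (chrX:108439844-108697545, plus strand) was 87.8, 84.8, 83.0, 85.6 and 85.1 CPM in the knockout and 115, 114, 117, 114 and 111 CPM in WT, as the plot of the type IV pairs shows. COL4A6 (chrX:108155607-108439497, minus strand), its trimer partner in epithelial and smooth muscle basement membranes, was 73.1, 72.4, 64.6, 67.0 and 68.7 CPM in the knockout and 101, 99.1, 101, 103 and 102 CPM in WT. The groups were far apart relative to their spread in both genes. The log2 fold change of COL4A5 was -0.42 (standard error 0.02, adjusted p = 1.56e-07 by edgeR) and that of COL4A6 was -0.55 (standard error 0.03, adjusted p = 3.43e-07 by edgeR), and with the length and GC offset COL4A5 was at -0.26. Over the alternative fits COL4A6 ranged from -0.57 to -0.38.

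COL4A3 (chr2:227164565-227314792, plus strand) and COL4A4 (chr2:227002711-227164453, minus strand) are the chains that join COL4A5 in the filtration membrane of the kidney, and both were at low levels here. COL4A4 was 1.81, 1.89, 2.12, 1.91 and 1.99 CPM in the knockout and 4.50, 4.17, 4.03, 3.68 and 4.63 CPM in WT. COL4A3 was 0.538, 0.779, 0.474, 0.637 and 0.598 CPM in the knockout and 1.32, 1.61, 1.58, 1.07 and 1.02 CPM in WT. Neither gene overlapped between groups, and COL4A3 varied more between libraries at its lower count. Their log2 fold changes were -1.11 (standard error 0.09, adjusted p = 2.61e-06 by edgeR) for COL4A4 and -1.13 (standard error 0.19, adjusted p = 4.35e-04 by edgeR) for COL4A3.

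COL18A1 (chr21:45405137-45513720, plus strand), the collagen with the most RNA per kilobase, was 505, 529, 479.7, 471 and 488 CPM in the knockout and 645, 680.2, 648, 652 and 637 CPM in WT. Every knockout library lay below the lowest WT library. Its log2 fold change was -0.40 (standard error 0.03, adjusted p = 3.14e-06 by edgeR), and -0.26 with the length and GC offset. Its annotated exons share 16.4% of their bases with SLC19A1, a folate carrier gene on the opposite strand, which had a log2 fold change of -0.09 (edgeR adjusted p = 0.125).

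COL15A1 (chr9:98943179-99070792, plus strand), the relative of COL18A1 in muscle and vessel basement membranes, was near the limit of detection. It was 0.437, 0.306, 0.223, 0.178 and 0.199 CPM in the knockout and 0.531, 0.393, 0.400, 0.492 and 0.680 CPM in WT. Knockout replicate 1 lay above WT replicates 2 and 3, so the groups overlapped. On the log2 scale its fold change was -0.89 (standard error 0.28, adjusted p = 0.0205 by edgeR), and without knockout replicate 4, knockout replicate 5 or WT replicate 5 the adjusted p was 0.0529, 0.0525 and 0.0518.

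The 21 tested genes of the other classes were more mixed, with 14 that fell, 1 that rose and 6 that did not pass, and a median log2 fold change of -0.34. All 3 tested network and anchoring genes fell, at a median of -1.12. Of the 9 tested FACIT genes 5 fell and 1 rose, at a median of -0.20, and of the 3 tested beaded filament genes 2 fell.

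COL22A1 (chr8:138588235-138914006, minus strand, ENSG00000169436), a FACIT collagen known from the junction of muscle and tendon, was the collagen with the widest difference. It had 78, 90, 94, 107 and 98 counts in knockout replicates 1 to 5, or 2.62, 2.50, 2.62, 2.73 and 2.79 CPM, and 0 counts in each of the 5 WT libraries. The knockout libraries lay close together, and no WT library held a read. With the WT count set to the limit of 3 counts over the group and totals unscaled, COL22A1 was at least 166-fold higher in the knockout (edgeR adjusted p = 1.68e-07). At 0.418 CPM per kilobase it was still the 30th collagen by level in the knockout. FAM135B, nearby on the same strand (chr8:138130023-138496822), also had reads only in knockout libraries. Its counts were 2, 5, 1, 3 and 5 in replicates 1 to 5, and it was not tested. TRAPPC9, on the other side of COL22A1 (chr8:139727725-140458579), was read in both groups, at a log2 fold change of -0.18 (edgeR adjusted p = 0.00126). Whether the missing WT reads of COL22A1 and FAM135B are linked was not tested.

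COL8A2 (chr1:36095236-36125220, minus strand), a chain of the hexagonal network under the corneal endothelium, was 4.64, 4.42, 2.90, 3.01 and 3.87 CPM in the knockout and 7.64, 8.08, 8.41, 8.51 and 8.13 CPM in WT. Replicates 3 and 4 were the lowest of the knockout, and none overlapped WT. The log2 fold change was -1.12 (standard error 0.12, adjusted p = 2.73e-05 by edgeR).

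COL8A1 (chr3:99638475-99799226, plus strand), the other type VIII chain, was 0.235, 0.334, 1.06, 0.459 and 0.370 CPM in the knockout and 1.14, 1.16, 1.13, 0.984 and 1.09 CPM in WT. Knockout replicate 3 lay within the WT range and the other 4 lay far below it. Its log2 fold change was -1.15 (standard error 0.32, adjusted p = 0.0108 by edgeR), and -1.63 without knockout replicate 3. In COL8A2 that library had the lowest value.

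COL7A1 (chr3:48564073-48595267, minus strand), which forms the fibrils that anchor the skin's basement membrane to the dermis, was 19.3, 19.4, 19.5, 19.9 and 20.4 CPM in the knockout and 39.4, 35.9, 32.2, 31.3 and 33.2 CPM in WT. The 5 knockout values were nearly equal, and the WT values spread more widely above them. On the log2 scale its fold change was -0.80 (standard error 0.06, adjusted p = 1.33e-06 by edgeR), and over the alternative fits it ranged from -0.84 to -0.61.

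**Figure D4:**
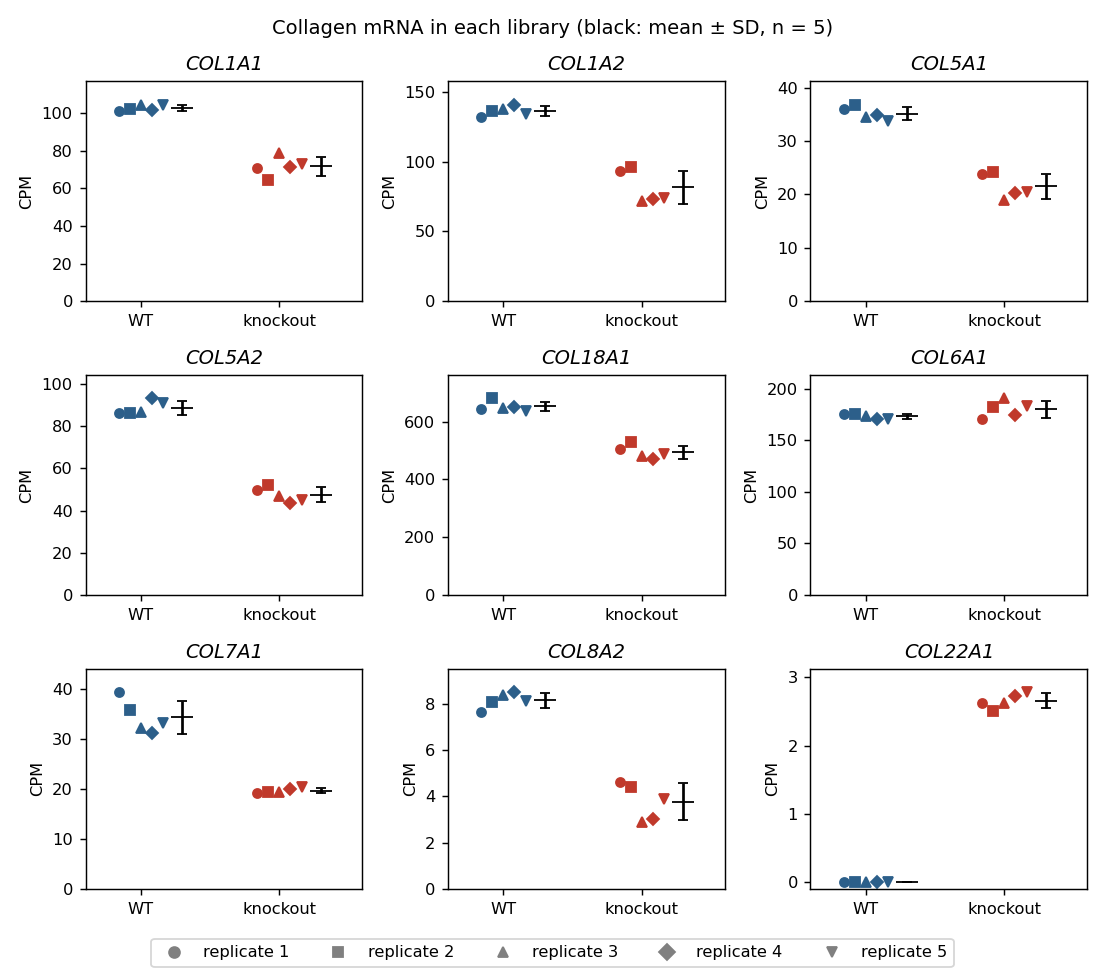
CPM of COL1A1, COL1A2, COL5A1, COL5A2, COL18A1, COL6A1, COL7A1, COL8A2 and COL22A1 in each library, with a marker shape per replicate number and the mean ± SD (n = 5) in black. COL6A1 overlaps between groups, COL22A1 is at 0 in all 5 WT libraries, and the other 7 genes are lower in every knockout library.

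Type VI chains, which build the beaded filaments around cells, split. COL6A1 was 170.4, 182, 191, 174 and 183 CPM in the knockout and 175, 175, 174, 170.4 and 171 CPM in WT. The groups overlapped and the log2 fold change was 0.06 (standard error 0.03, adjusted p = 0.156 by edgeR). Without knockout replicate 1 it was 0.09 (adjusted p = 0.0443), and with the length and GC offset it was 0.14 (adjusted p = 5.77e-04), the third rise counted in that fit. COL6A2 was 123, 125, 123, 113 and 121 CPM in the knockout and 143, 145, 146, 141 and 139 CPM in WT. It was lower in all 5 knockout libraries, with a log2 fold change of -0.24 (standard error 0.03, adjusted p = 8.05e-05 by edgeR). COL6A3 fell by 0.30 on the log2 scale (edgeR adjusted p = 0.00294), but with the length and GC offset its value was -0.07 (adjusted p = 0.406).

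The other genes with high levels had small differences. COL26A1, a matrix gene of the ovary and testis, was 146, 156, 144, 138 and 143 CPM in the knockout and 154, 165, 161, 162 and 159 CPM in WT. Knockout replicate 2 overlapped WT. The log2 fold change was -0.14 (standard error 0.03, adjusted p = 0.00429 by edgeR), and without knockout replicate 3 and WT replicates 2 and 3 it was -0.12 (adjusted p = 0.0542). COL9A3, a chain of the type IX collagen on cartilage fibrils, was 101, 110.5, 113, 109 and 114 CPM in the knockout and 119, 114, 114, 109.8 and 107 CPM in WT, with overlap throughout. Its log2 fold change of -0.05 (edgeR adjusted p = 0.353) did not pass.

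Other FACIT genes that fell were COL9A1 (-0.47 on the log2 scale), COL9A2 (-0.43), COL12A1 (-0.47), COL14A1 (-0.38) and COL16A1 (-0.20). COL16A1 overlapped between groups, and with the length and GC offset its value was -0.07 (edgeR adjusted p = 0.336), while COL12A1 and COL14A1 were at -0.26 and -0.23 with it. Among membrane-spanning collagens COL23A1 fell by 0.74 on the log2 scale (standard error 0.05, adjusted p = 5.21e-07 by edgeR), from 52.6 ± 2.29 CPM (SD, n = 5) in WT to 31.6 ± 2.13 CPM (SD, n = 5). COL13A1 and COL25A1 fell by 0.41 and 0.46 on the log2 scale, and COL17A1, the hemidesmosome collagen of skin, did not pass at -0.17 (edgeR adjusted p = 0.481). COL20A1, COL21A1 and COL28A1 did not pass either, with log2 fold changes of 0.50, -0.17 and -0.34. The genes not tested for low counts were COL10A1, COL19A1, COL3A1, COL6A5 and COL6A6, with 3 to 19 counts over the knockout libraries and 0 to 32 over WT.

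By size, 7 of the 30 genes that fell had a log2 fold change under -0.8, 6 lay from -0.8 to -0.5 and 17 lay above -0.5. Over all tested genes, 7.82% passed the test with a log2 fold change under -0.5. The 7 were COL5A2, COL4A3, COL4A4, COL15A1, COL7A1, COL8A1 and COL8A2, of which COL4A3, COL15A1 and COL8A1 were near 1 CPM or below in both groups. The other genes that fell lay between -0.14 (COL26A1) and -0.74 (COL23A1 and COL1A2).

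Within the knockout, the libraries were not equally low. Over the 30 genes that fell, the median log2 value relative to the WT mean was -0.38, -0.43, -0.47, -0.56 and -0.48 in replicates 1 to 5, all below the -0.01 to 0.00 of the WT libraries. The highest knockout value lay in replicate 1 or 2 for 23 of the 30 genes, and in replicate 4 for 1 gene. In COL1A2, COL5A1 and COL8A2 replicates 1 and 2 were the highest of the knockout, whereas in COL1A1 and COL4A4 they were not. Since these genes were chosen as lower, the medians describe the libraries and carry no test.

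The balance of chains of the same type was compared in 11 pairs by the log2 ratio of their counts in each library, with an exact two-sided permutation test, whose smallest p with 5 against 5 libraries is 0.00794, and adjustment over the 11 pairs. The ratio differed in 4 pairs, each with the adjusted p of 0.0218. COL6A1 rose relative to COL6A2, with a difference of 0.29 in the log2 ratio (96.8% interval 0.20 to 0.36). COL6A3 fell relative to COL6A1 by 0.36 on the log2 scale (interval -0.52 to -0.25), and these pairs share COL6A1. The COL6A3 transcript is the longer, at 10.7 kilobases against 4.24 for COL6A1. No ratio was taken with the length and GC offset, so the part of transcript length in the ratios was not tested. COL9A3 rose relative to COL9A2 by 0.39 (interval 0.12 to 0.65), and COL4A5 rose relative to COL4A6 by 0.13 (interval 0.04 to 0.21). Per kilobase, the ratio of COL6A1 to COL6A2 was 0.990 in WT and 1.21 in the knockout.

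For the other 7 pairs no difference in ratio passed the test, with intervals of unequal width. COL4A1 to COL4A2 was held narrowly, with a difference of -0.02 (interval -0.08 to 0.04, exact permutation adjusted p = 0.592), as was COL9A1 to COL9A2 at -0.04 (interval -0.14 to 0.11). COL4A3 to COL4A4 had a difference of -0.01 with a wide interval of -0.40 to 0.50. COL1A1 to COL1A2 was 0.22 (interval -0.19 to 0.53, exact permutation adjusted p = 0.224), and knockout replicate 2, where COL1A2 was highest and COL1A1 lowest, bore on it: without that library the difference was 0.32 (adjusted p = 0.0437). COL5A1 to COL5A2 was 0.19 (interval 0.03 to 0.32, exact permutation adjusted p = 0.0524), and without knockout replicate 3 it was 0.23 (adjusted p = 0.0349). COL11A1 to COL11A2 was 0.29 (interval -0.10 to 0.62), and without knockout replicate 2 it was 0.40 (adjusted p = 0.0437), and COL8A1 to COL8A2 could not be placed, at -0.23 (interval -1.41 to 1.44).

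**Figure D5:**
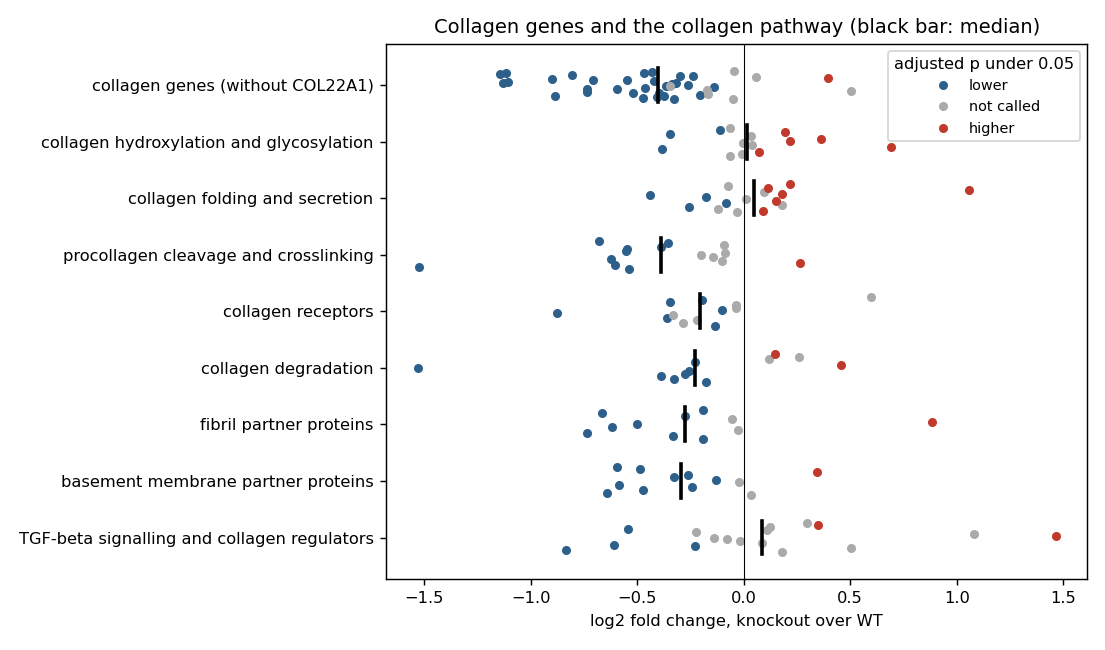
Log2 fold change of knockout over WT for each tested gene of the collagens (without COL22A1) and of 8 lists of genes that make, process, bind, break down or regulate collagen, with genes that fell in blue, genes that rose in red, the others in grey and each median as a black bar. The cleavage and crosslinking list has its median at -0.39 and the basement membrane partners at -0.30, whereas hydroxylation and folding lie at 0.01 and 0.05.

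Values after ± below are SDs over 5 libraries. Genes that act on collagens were read in 8 lists, against the 24.1% lower and 21.9% higher among all tested genes. Among tested genes with a transcript of at least 5000 bases those shares were 44.0% and 11.2%. Most genes of both partner protein lists have transcripts of that length, and few of the hydroxylation and glycosylation list do. The part of transcript length in the differences between lists was not tested. Inside the cell the machinery was mixed. Of 14 tested genes of hydroxylation and glycosylation 5 rose and 3 fell (median log2 fold change 0.01), and of 16 genes of folding and secretion 6 rose and 4 fell (median 0.05). In that second list 2 fell without knockout replicate 2 or 5 or WT replicate 3 or 5, each left out alone. The number that fell was also 2 with the Wald test of DESeq2 and with no low-count filter. Without knockout replicate 3 and WT replicates 2 and 3 together, 3 rose and 2 fell. P3H1, CRTAP and PPIB, which form a complex that modifies collagen chains, split: P3H1 went from 86.7 ± 2.51 CPM in WT to 66.5 ± 3.16 CPM in the knockout (log2 fold change -0.38, edgeR adjusted p = 7.26e-06). PPIB went from 293 ± 5.67 CPM to 377 ± 13.2 CPM (log2 fold change 0.36, edgeR adjusted p = 1.90e-06), and CRTAP, named after its value was seen, rose by 0.22. P3H2, a related hydroxylase, rose by 0.69 on the log2 scale and PLOD2, which hydroxylates lysines used in crosslinks, fell by 0.35. SERPINH1, the collagen chaperone HSP47, was 785 ± 20.02 CPM against 802 ± 29.9 CPM and did not pass (edgeR adjusted p = 0.443); it too was named after its value was seen.

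Among genes of the COPII coat, which carries procollagen out of the endoplasmic reticulum, the directions differed. SEC24D fell from 99.1 ± 2.30 CPM to 73.1 ± 2.70 CPM (log2 fold change -0.44, edgeR adjusted p = 8.17e-07) and SEC23A fell by 0.18 on the log2 scale. SAR1B, the GTPase that starts the coat, rose from 23.5 ± 1.14 CPM to 48.9 ± 9.60 CPM (log2 fold change 1.06, edgeR adjusted p = 2.12e-05), and SEC13 rose by 0.18.

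Outside the cell more genes fell than rose. Of 15 genes of procollagen cleavage and crosslinking 9 fell and 1 rose, at a median log2 fold change of -0.39. LOXL2, a lysyl oxidase that crosslinks matrix, went from 89.7 ± 2.29 CPM to 61.4 ± 3.69 CPM (log2 fold change -0.55, edgeR adjusted p = 1.24e-06). LOXL1 and LOXL3 fell by 0.55 and 0.39 on the log2 scale, and PXDN, the peroxidase that crosslinks type IV collagen, fell from 254 ± 10.7 CPM to 198 ± 6.04 CPM, at -0.36. Of 12 tested collagen receptor genes 6 fell and 6 did not pass (1 rose without knockout replicate 3 and 1 with the length and GC offset), at a median of -0.21, with ITGA2 at -0.36, ANTXR1 at -0.35, ANTXR2 at -0.19 and DDR1 at -0.14. With the length and GC offset DDR1 and ANTXR2 no longer passed (edgeR adjusted p of 0.135 and 0.214).

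Of 11 tested degradation genes 7 fell and 2 rose, at a median of -0.23. CTSK, a collagen-cutting cathepsin of osteoclasts, went from 19.2 ± 0.918 CPM in WT to 6.64 ± 0.435 CPM in the knockout (log2 fold change -1.53, edgeR adjusted p = 3.58e-09). The membrane-bound MMP14 and MMP15 fell by 0.39 and 0.27 on the log2 scale. TIMP2, an inhibitor of such enzymes that was named after its value was seen, fell by 0.23. TIMP1, another metalloproteinase inhibitor, rose by 0.46.

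Most genes of partner proteins fell beside the collagen genes. Of 12 basement membrane partners 9 fell and 1 rose, at a median log2 fold change of -0.30. With the length and GC offset 3 rose, and TINAGL1, the gene that rose, did not pass without knockout replicate 3 and WT replicates 2 and 3. LAMA1, a laminin chain, went from 193 ± 5.30 CPM to 129 ± 6.44 CPM (log2 fold change -0.59, edgeR adjusted p = 3.00e-07). HSPG2, which encodes perlecan, went from 359 ± 7.89 CPM to 258 ± 11.9 CPM, at -0.47, and NID2 and FREM2 fell by 0.64 and 0.60. Over the alternative fits LAMA1 ranged from -0.60 to -0.37 and HSPG2 from -0.50 to -0.23. Of 11 tested fibril partners 8 fell and 1 rose, at a median of -0.27. With the length and GC offset 5 fell, and THBS1, the gene that rose, did not pass without knockout replicate 3 and WT replicates 2 and 3. FBN2, a fibrillin, went from 93.4 ± 4.13 CPM to 56.0 ± 1.86 CPM (log2 fold change -0.74, edgeR adjusted p = 4.22e-08), and TNXB, TNC and SPARC fell by 0.62, 0.50 and 0.27.

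The list of TGF-beta signalling and collagen regulators was near the background, with 4 of 17 tested genes lower and 2 higher at a median of 0.08. The number higher was 6 without knockout replicate 1, 4 without WT replicate 1 and 4 with the length and GC offset. CCN2, a matricellular target of TGF-beta and of YAP, rose by 1.46 on the log2 scale (edgeR adjusted p = 0.00136). It was 159, 216, 560.3, 469.9 and 298 CPM in knockout replicates 1 to 5 and 113 to 136 CPM in WT. The lowest knockout values of CCN2 were in replicates 1 and 2, the libraries that held the highest knockout value of most collagens that fell, and a link between them was not tested. TGFBR2, a TGF-beta receptor, and SOX9, a regulator of cartilage collagens, fell by 0.61 and 0.55 on the log2 scale, and SNAI1 rose by 0.35.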

How the data were processed

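PolyA RNA of H9 cells was sequenced with 150 paired-end cycles, per the labels' protocols, in 5 knockout and 5 WT libraries, grouped by their titles. The authors deposited raw counts per gene. Build hg38, the tool DESeq2 and R 3.6.3 are named in the submitters' processing notes. No source used here gives the aligner, the counter, the annotation or the strand setting. A deposited table of the authors' own comparison also holds a mean normalised signal, a log2 fold change, a score and a p-value per gene. Symbols, the authors' log2 fold changes and their calls were taken from it. The collagen genes and the gene lists were chosen with earlier results of these data known.

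All genes were fitted with edgeR 4.0.16 in R 4.3.3 (TMM, filterByExpr, glmQLFit and glmQLFTest on group, Benjamini-Hochberg adjustment, threshold 0.05). The fitting was tested on simulated data. Transcript lengths (an APPRIS principal transcript where GENCODE marks one, and the longest of those), positions and overlaps came from GENCODE 29 (GRCh38, the assembly of hg38), which gave a length for 98.9% of tested genes. Promoter sequences came from RefSeq. Ratios were tested in Python 3.11.15 (numpy 2.4.6, scipy 1.17.1), and their 96.8% intervals are exact rank-based intervals.

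Library-pair chi-square values per degree of freedom within groups (genes with at least 20 counts) were 3.59 to 26.2, above sampling noise, so each library counted as 1 replicate. A count of 0 was read as allowing 3 counts, which covers counting error only, as the counts hold no molecular identifiers.

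Values per library are given for COL5A2, COL1A1 and COL22A1, for the 10 collagens with the highest mean CPM, and for those past the threshold with a log2 fold change beyond 0.8 in either direction, and up to 4 genes with the smallest p are named from each list. Collagens given per library beyond this, such as COL5A3, were chosen after their values were seen. Other genes named beyond this rule, such as TIMP2, FAM135B and some cell type markers, were named with their values known. Other settings tried were voom (limma 3.58.1), the Wald test of DESeq2 1.42.0 and its size factors within edgeR, no low-count filter or one of 1 CPM in 5 libraries, and a block on replicate number. Each library was left out in turn, and knockout 3, WT 2 and WT 3 together. An offset for transcript length and GC was a spline trend with 5 degrees of freedom per library. For the ratios, a scale of CPM + 0.5 was tried.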

Additional observations from a re-analysis of the deposited data

Results flagged for a closer look

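In 79 groups of 5 libraries (each tested collagen gene and KCNH2 in each group, without COL22A1 in WT, which was at 0 throughout) the gap between the highest or lowest library and its nearest neighbour was set against the group's range, and 2 groups passed the critical ratio of 0.71. Chance passes about 1 in 20 such groups. COL28A1 was 1.214 CPM in WT replicate 1, and 0.690 to 0.748 CPM in the other WT libraries. COL8A1 was 1.06 CPM in knockout replicate 3, against 0.235 to 0.459 CPM in the other knockout libraries, and that replicate also stood apart over all genes.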

How the results depend on the processing

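Over 18 alternative fits 27 to 30 collagen genes fell and 2 to 3 rose, and each gene counted as lower in an alternative was among the 30. Leaving out each library in turn gave 28 to 30 lower. The lowest count, 27 with a median log2 fold change of -0.26, came with the length and GC offset, and without knockout replicate 3 and WT replicates 2 and 3 it was 28 lower and 2 higher. Fibrillar genes gave 7 to 8 lower, basement membrane genes 7 to 8 and the other classes 12 to 14. KCNH2 ranged from -0.38 to -0.26 on the log2 scale. Of 698 values of single collagen genes, 680 kept direction and call, 15 lost the call, 2 gained it (both COL6A1) and 1 changed sign, COL11A1 at 0.11 with the offset.

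The replicate block gave 30 lower and 2 higher collagen genes at a median of -0.40 and changed no collagen call. The numbers share no stated origin: same-numbered libraries correlated at 0.17, -0.16, 0.70, 0.20 and 0.18 in their deviations from the group means, and only knockout replicate 3 correlated best with its own number.

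Of 132 ratio values 117 kept direction and call. COL4A3 to COL4A4 changed sign with CPM + 0.5 (0.23) and without knockout replicate 3 and WT replicates 2 and 3 (0.32), and ran from -0.13 to 0.10 with each library left out. COL8A1 to COL8A2 changed sign with CPM + 0.5 (0.30) and ran from -0.64 to 0.071. Without those 3 libraries COL4A5 to COL4A6 (0.14, exact permutation adjusted p = 0.126), COL6A1 to COL6A2 (0.27, adjusted p = 0.105), COL6A3 to COL6A1 (-0.37, adjusted p = 0.105) and COL9A3 to COL9A2 (0.32, adjusted p = 0.126) no longer passed, with fewer samples. The smallest p of the exact test is larger with fewer libraries, so these lost calls cannot show whether the ratios depend on those libraries. With all 10 libraries the 4 differences were 0.13, 0.29, -0.36 and 0.39. Low counts limit the untested genes and, among those tested, COL15A1, COL17A1, COL20A1, COL28A1, COL8A1 and COL4A3.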
